A study of Mus musculus with 12 samples.

Results

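The TNF receptor and NF-κB core genes were 10 genes taken by name: the receptors Tnfrsf1a and Tnfrsf1b, the adaptor genes Traf2 and Ripk1, the NF-κB subunit genes Nfkb1, Nfkb2, Rela and Relb, and the inhibitor genes Nfkbia and Tnfaip3. Each had 1 row among the 20457 genes of the deposited table. All 10 were also among the 14723 genes tested, which reached 10 normalized counts in at least 3 of the 12 libraries. A normalized count is a read count divided by the size factor of its library. The RNA came from hematopoietic stem cells of C57BL/6 mouse bone marrow, sorted 50 cells to a library and amplified by Smart-Seq2. That method copies whole transcripts and counts no molecular tags. The 4 groups were old IL27RA+ cells (28 months), old IL27RA− cells (28 months), young IL27RA+ cells (2 months) and young IL27RA− cells (2 months), with 3 libraries each. IL27RA is a receptor subunit for the cytokine IL27. No treatment or engineered allele is named for any group, and the sorting gates for stem cells were not stated. No label ties libraries to individual mice, so p-values measure the spread between libraries, which may be technical.

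TNF binds both receptors. Tnfrsf1a carries a death domain and gathers Ripk1 and Traf2, whereas Tnfrsf1b has none and binds Traf2. Both routes activate IκB kinases, which mark IκBα, the product of Nfkbia, for destruction and so free dimers of Rela with the Nfkb1 product. A slower route processes the Nfkb2 precursor into the partner of Relb. Nfkbia and Tnfaip3 are themselves NF-κB targets in many cells and act as feedback inhibitors, and in blood stem cells the pathway is known for survival and inflammatory responses.

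Libraries held 11.7 to 24.2 M reads in genes, and a floor of 3 reads equals 1.93 to 3.77 normalized counts, depending on the library. That floor covers counting error only. Young IL27RA− libraries were deepest, with 21.7 ± 2.54 M reads (SD, n = 3). All 13 stem cell markers had reads in every group. They summed to 66928 to 71620 normalized counts in old IL27RA+ and 82442 to 85405 in old IL27RA− libraries, which did not overlap. In young cells they summed to 68514 to 77038 in IL27RA+ and 75330 to 91571 in IL27RA− libraries, which overlapped. Whether this bears on the sort differences of the core genes was not tested. Markers of other cells were also present. The macrophage and monocyte list summed to 14528 to 21528 normalized counts in old IL27RA+ and 10480 to 14510 in old IL27RA− libraries, and to 13991 to 21968 in young IL27RA+ and 11632 to 14241 in young IL27RA− libraries. Of its 14 listed genes in the table, 1 had no read in old IL27RA+, 4 in old IL27RA−, 1 in young IL27RA+ and 2 in young IL27RA− libraries. Old IL27RA− replicate 1 stood apart in B lineage and plasma cell markers, which summed to 378408 normalized counts there and to 4497 to 14534 in the other libraries. Most of that sum, 312300, came from the immunoglobulin gene Igkc, which had 18.8 to 248 in the other libraries. One label field of old IL27RA− replicate 1 calls it young, but its title and its age say old. Il27ra mRNA averaged 1294 ± 182 normalized counts in old IL27RA+, 1379 ± 282 in old IL27RA−, 1088 ± 185 in young IL27RA+ and 1231 ± 457 in young IL27RA− libraries, so it did not order the libraries by the sort.

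Per kilobase of exon, Nfkbia was the most abundant of the 10 genes at 3690 ± 887 normalized counts per kb over the 12 libraries (mean ± SD). Its lowest library, at 2626 per kb, lay above every library of the other 9 genes. Tnfrsf1a followed with 597 ± 121 per kb. Its lowest library, at 394 per kb, overlapped the highest libraries of Rela (501 per kb) and Tnfrsf1b (423 per kb). The next genes lay close together on the per-kb scale. Rela averaged 299 ± 98.1, Traf2 223 ± 64.6, Tnfrsf1b 204 ± 87.2, Nfkb1 194 ± 44.1, Nfkb2 142 ± 46.5 and Ripk1 110 ± 46.7 normalized counts per kb. Neighbours in this order overlapped in their libraries. Tnfaip3, at 45.2 ± 27.7 per kb, and Relb, at 33.9 ± 17.7 per kb, were lowest, and their libraries overlapped too. Lengths are those of all annotated exons in GENCODE M21, so a gene with an unused long exon is given too low a level.

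**Figure D1:**
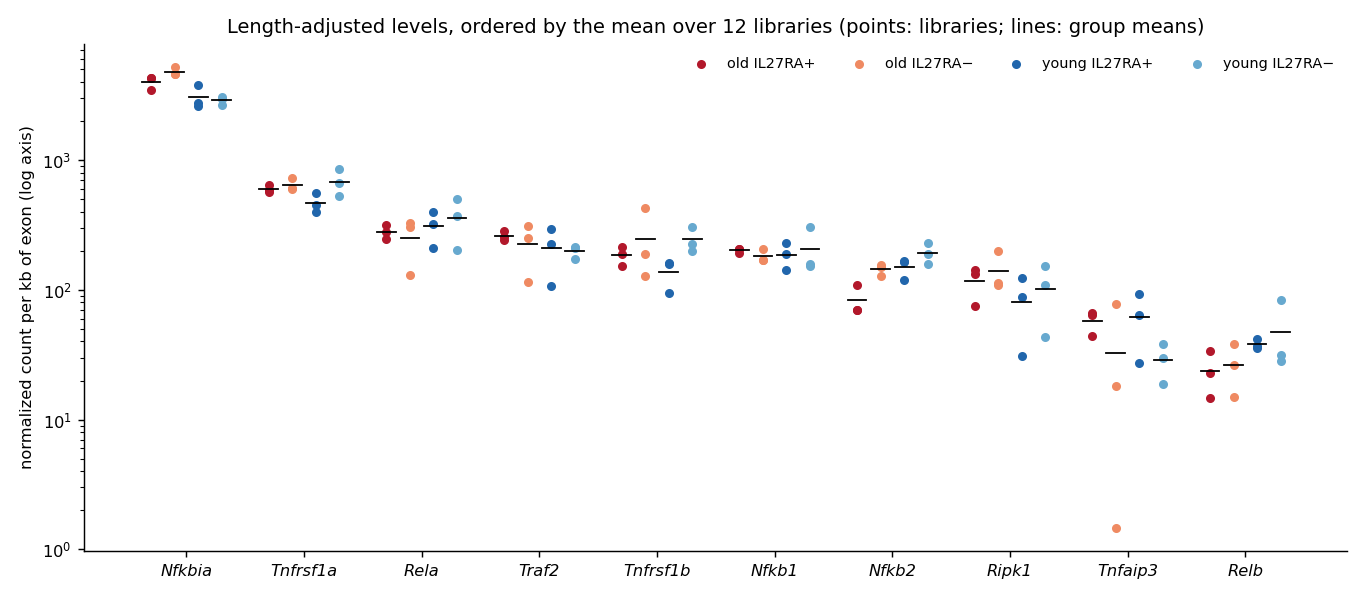
Length-adjusted level of each gene (normalized count per kb of exon, log axis) in the 12 libraries, ordered by mean; points are libraries, lines are group means, and colours are the 4 groups. Nfkbia lies above all other genes, the middle 6 overlap, and 1 old IL27RA− library falls to 1.47 per kb for Tnfaip3.

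Of the 10 genes, 1 passed the test for age. Nfkbia mRNA rose in old cells by 0.57 ± 0.14 on the log2(normalized count + 1) scale, averaged over both sorted fractions (SE, 95% interval 0.27 to 0.86). That is a 1.48-fold difference, with a limma p of 0.00094 and a Benjamini-Hochberg adjusted p of 0.04997 over the 14723 genes, just inside the threshold of 0.05. The call is not firm: 20 of 22 alternative settings put the adjusted p above the threshold, at 0.0505 to 0.202, while the difference stayed between 0.49 and 0.65. In the same comparison 277 genes, 1.88% of those tested, were called. No core gene was called for the sort: averaged over ages, 28 genes (0.19%) were called, among them 0 of the 10, with 1 of the 10 at an unadjusted p under 0.05 against 7.97% of all genes. Limma voom on the recovered reads called 0 core genes in any of the 7 comparisons.

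**Figure D2:**
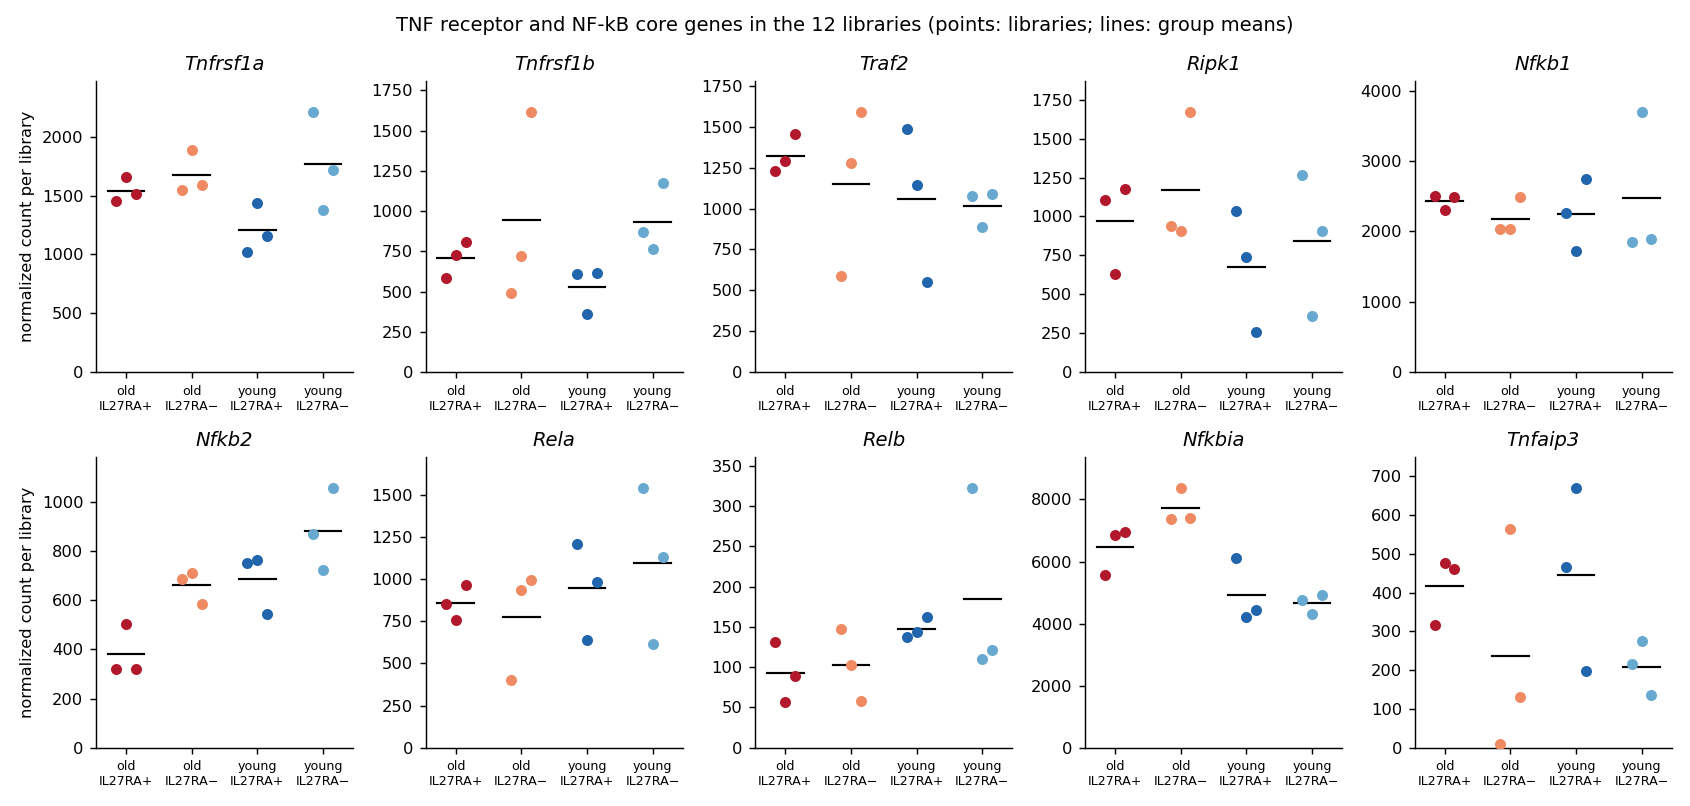
Normalized counts of the 10 genes in every library (points, 3 per group) with group means (lines); each panel starts at 0 and has its own scale. Nfkbia lies between 5577 and 8373 in old and between 4227 and 6108 in young libraries, and Nfkb2 is lowest in old IL27RA+ libraries.

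Within single groups, where 3 libraries faced 3, none of the 10 genes was called. Old minus young called 0.672% of all genes in IL27RA− cells and 0.421% in IL27RA+ cells. IL27RA+ minus IL27RA− called 0.0272% in old and 0.0204% in young cells. At an unadjusted p under 0.05, 1 of the 10 genes stood in each of these 4 comparisons: Nfkbia for age in IL27RA− cells, Nfkb2 for age in IL27RA+ cells, Nfkb2 for the sort in old cells and Tnfrsf1a for the sort in young cells. Of all genes tested, 12.5%, 8.89%, 5.38% and 8.21% were under that p in the same 4 comparisons, so 1 of 10 is near the background. Groups did not overlap for 2 of the 10 genes for age in IL27RA− cells (14.5% of all genes), 3 for age in IL27RA+ cells (16.9%), 2 for the sort in old cells (12.6%) and 1 for the sort in young cells (9.79%). These counts lie within 2 genes of those shares. Between all old and all young libraries 0 of the 10 were free of overlap (2.06% of all genes), and between all IL27RA+ and all IL27RA− libraries also 0 (0.421%). The age effect did not differ detectably between fractions: the interaction called 0 genes of the whole table (0%), 5.18% of which had an unadjusted p under 0.05, and 0 of the 10 did.

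The direction of the 10 genes was mixed. Old minus young, averaged over fractions, was positive for 6 and negative for 4, with a median of 0.08 log2 units against 0.06 for all genes tested. IL27RA+ minus IL27RA−, averaged over ages, was positive for 4 and negative for 6, with a median of −0.12 against 0.05 for all genes.

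**Figure D3:**
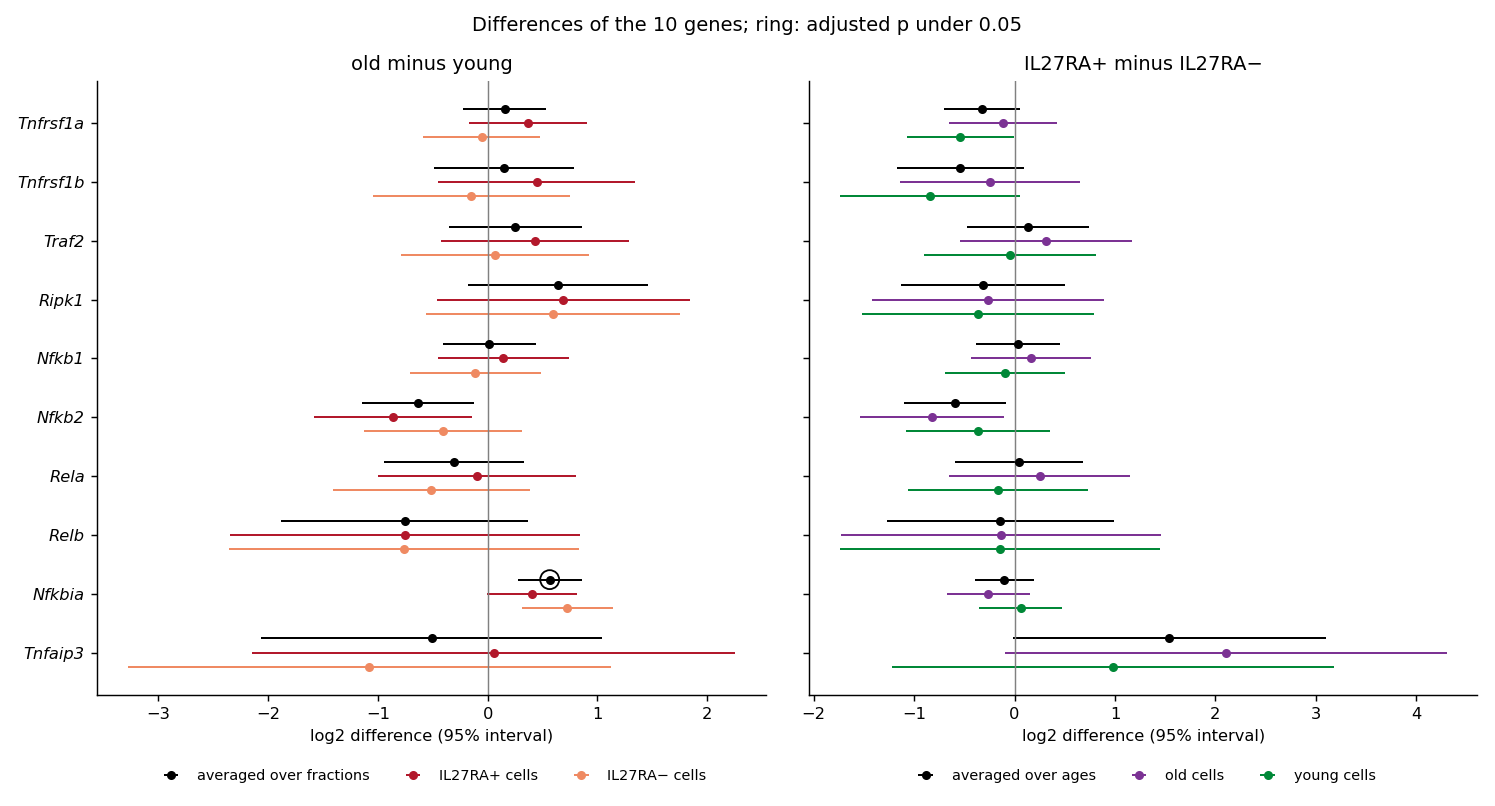
Log2 differences with 95% intervals for each gene, old minus young on the left and IL27RA+ minus IL27RA− on the right, averaged (black) and within single groups (colours); a ring marks an adjusted p under 0.05. The ring stands on Nfkbia for age at 0.57, and most intervals cross 0.

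Tnfrsf1a (chromosome 6), the receptor with a death domain that is found on most cell types, was well expressed in all groups. Its normalized counts were 1456, 1657 and 1512 in old IL27RA+ and 1549, 1884 and 1590 in old IL27RA− libraries, with 1022, 1433 and 1158 in young IL27RA+ and 2208, 1374 and 1715 in young IL27RA− libraries. Young IL27RA+ libraries were the low group, and all 3 lay below every old IL27RA+ library. In young cells IL27RA+ minus IL27RA− was −0.54 ± 0.25 on the log2 scale (SE, limma p 0.0488, adjusted p 0.603), and the groups overlapped by 1 library each. Averaged over ages the sort difference was −0.33 ± 0.18 (interval −0.71 to 0.05), and the age difference was 0.16 ± 0.18 (interval −0.22 to 0.54). Its spread within groups, an SD of 0.23 log2 units, was small: 6% of 500 genes of like level had a smaller one.

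Tnfrsf1b (chromosome 4), the second TNF receptor, is found mainly on blood and endothelial cells and binds Traf2 without a death domain. It had 586, 725 and 811 normalized counts in old IL27RA+ and 489, 723 and 1615 in old IL27RA− libraries, against 607, 364 and 613 in young IL27RA+ and 868, 766 and 1173 in young IL27RA− libraries. All 3 young IL27RA+ libraries lay below all 3 young IL27RA− libraries, with a difference of −0.84 ± 0.42 (adjusted p 0.626). In old cells the groups overlapped, and the old IL27RA− libraries alone ranged 3.3-fold. The averaged sort difference was −0.54 ± 0.30 (interval −1.18 to 0.09, adjusted p 0.69). Within libraries the log2 ratio of Tnfrsf1b to Tnfrsf1a averaged −1.13 ± 0.21 in old IL27RA+, −1.01 ± 0.90 in old IL27RA−, −1.21 ± 0.67 in young IL27RA+ and −0.91 ± 0.40 in young IL27RA− libraries (SD, n = 3). This receptor balance differed by −0.01 for age (two-sided exact permutation within strata, p = 0.965) and by −0.21 for the sort (exact permutation p = 0.53).

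Traf2 (chromosome 2), a ubiquitin ligase adaptor that links both receptors to IκB kinase and JNK signalling, had 1230, 1290 and 1454 normalized counts in old IL27RA+ and 589, 1279 and 1590 in old IL27RA− libraries. It had 1488, 1147 and 549 in young IL27RA+ and 1075, 885 and 1088 in young IL27RA− libraries. The groups overlapped in every comparison, and the lowest libraries were old IL27RA− replicate 1 and young IL27RA+ replicate 3. The age difference was 0.25 ± 0.28 (interval −0.35 to 0.86) and the sort difference 0.13 ± 0.28 (interval −0.47 to 0.74).

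Ripk1 (chromosome 13), the kinase that acts as a survival scaffold or, when active, starts apoptosis or necroptosis, spread widely among its libraries. It had 1103, 631 and 1179 normalized counts in old IL27RA+ and 940, 907 and 1670 in old IL27RA− libraries, against 1033, 737 and 256 in young IL27RA+ and 1265, 360 and 909 in young IL27RA− libraries. The 2 lowest libraries were young, 1 of each fraction, and the groups overlapped. Old minus young was 0.64 ± 0.38 (interval −0.17 to 1.46, adjusted p 0.462). Its SD within groups was 0.79 log2 units, and 92.8% of 500 genes of like level had a smaller one. Exons of Ripk1 overlap those of Serpinb6a on the other strand and of a pseudogene on the same strand, and whether the reads were counted by strand is not stated.

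Nfkb1 (chromosome 3), whose precursor gives the subunit that pairs with the Rela product, had 2501, 2303 and 2491 normalized counts in old IL27RA+ and 2030, 2030 and 2490 in old IL27RA− libraries. It had 2260, 1717 and 2748 in young IL27RA+ and 1844, 3695 and 1894 in young IL27RA− libraries. The groups overlapped, and young IL27RA− replicate 2 was the one high library. Both averaged differences were close to 0, at 0.02 ± 0.20 for age (interval −0.41 to 0.44) and 0.03 ± 0.20 for the sort (interval −0.39 to 0.46). These intervals were the narrowest of the 4 subunit genes.

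Nfkb2 (chromosome 19), whose precursor both restrains the Relb product and, once processed, becomes its partner, had 319, 502 and 322 normalized counts in old IL27RA+ and 688, 711 and 586 in old IL27RA− libraries. It had 750, 762 and 546 in young IL27RA+ and 869, 723 and 1057 in young IL27RA− libraries. The old IL27RA+ libraries were the 3 lowest of the 12, with no overlap with any other group, and old IL27RA− libraries lay below young IL27RA− ones by a narrow margin. Old minus young was −0.86 ± 0.34 in IL27RA+ cells (adjusted p 0.463) and −0.40 ± 0.34 in IL27RA− cells (adjusted p 0.663), and averaged −0.63 ± 0.24 (interval −1.14 to −0.12, p 0.0183, adjusted p 0.218). IL27RA+ minus IL27RA− was −0.82 ± 0.34 in old cells (adjusted p 0.837) and −0.36 ± 0.34 in young cells, and averaged −0.59 ± 0.24 (p 0.0255, adjusted p 0.547). None of these passed the adjusted threshold, although the intervals of both averages lay below 0. The age comparison in IL27RA+ cells and the sort comparison in old cells share the same 3 low libraries. A two-sided exact permutation of the labels within strata gave p = 0.005 for age and p = 0.015 for the sort. Both were 0.1 after adjustment over the 20 such tests. The 400 relabelings allow no p below 0.005, so a lone gene could not pass that adjustment. Leaving out any 1 library kept the averages between −0.74 and −0.56 for age and between −0.70 and −0.51 for the sort.

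Nfkb2 was also among the steadiest of the 10 genes. Its SD within groups was 0.28 log2 units, and 3% of 500 genes of like level had a smaller one. Its exons overlap those of Psd and of an antisense transcript on the other strand. The macrophage and monocyte sums given above were higher in old IL27RA+ than in old IL27RA− libraries and overlapped in young ones. Gene by gene the gap was wider: the 13 tested genes of that list had a median sort difference of 4.03 log2 units, averaged over ages. Of these, 11 had an unadjusted limma p under 0.05, against 7.97% of all genes. The part of macrophage and monocyte transcripts in the sort differences of Nfkb2, Tnfrsf1a, Tnfrsf1b and Tnfaip3 was not tested. In libraries of 50 cells, fewer cells with a transcript and less transcript per cell cannot be told apart.

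Rela (chromosome 19), the main activating subunit, had 854, 759 and 963 normalized counts in old IL27RA+ and 399, 935 and 996 in old IL27RA− libraries. It had 1211, 640 and 984 in young IL27RA+ and 1540, 617 and 1133 in young IL27RA− libraries. The groups overlapped in all comparisons, and old IL27RA− replicate 1, the library with the B lineage signal, was lowest. Old minus young was −0.30 ± 0.30 (interval −0.94 to 0.33, adjusted p 0.701), and −0.09 without that library. The sort difference was 0.04 ± 0.30 (interval −0.59 to 0.68).

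Relb (chromosome 7), the activating subunit of the slower route, was the least abundant subunit gene per kb. It had 131, 56.5 and 89.1 normalized counts in old IL27RA+ and 147, 103 and 57.8 in old IL27RA− libraries, against 137, 143 and 162 in young IL27RA+ and 322, 110 and 122 in young IL27RA− libraries. All 3 old IL27RA+ libraries lay below all 3 young IL27RA+ libraries, and in IL27RA− cells old and young overlapped. The age difference was −0.75 ± 0.75 in IL27RA+ and −0.76 ± 0.75 in IL27RA− cells, and averaged −0.76 ± 0.53 (interval −1.88 to 0.37, adjusted p 0.541). Relb thus took the same sign as Nfkb2 in both fractions, but its interval spans 0. Its exact permutation p for age was 0.055, and 0.22 after adjustment.

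The ratio of the Nfkb2 to the Nfkb1 transcript within a library does not depend on the size factor. On the log2 scale it averaged −2.70 ± 0.44 in old IL27RA+, −1.72 ± 0.32 in old IL27RA−, −1.70 ± 0.59 in young IL27RA+ and −1.43 ± 0.81 in young IL27RA− libraries (SD, n = 3). Old IL27RA+ cells were the low group, and 1 library of each young group overlapped them. The averaged age difference was −0.65 (exact permutation p = 0.09) and the sort difference −0.63 (exact permutation p = 0.085), both 0.225 after adjustment over the 10 ratio tests. The Relb to Rela ratio differed by −0.45 for age (exact permutation p = 0.335) and by −0.18 for the sort (exact permutation p = 0.74).

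**Figure D4:**
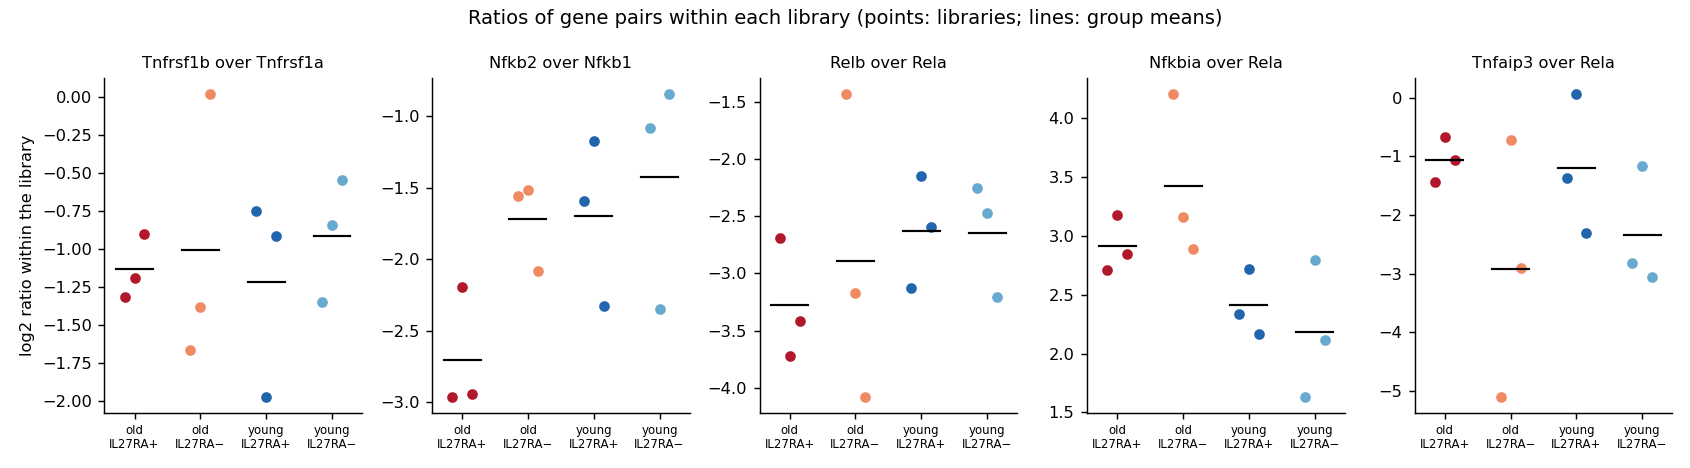
Log2 ratio of 5 gene pairs within each library (points, 3 per group) with group means (lines), from normalized counts not adjusted for length. The Nfkb2 to Nfkb1 ratio is lowest in old IL27RA+ cells, at −2.70, and the Nfkbia to Rela ratio is highest in old IL27RA− cells, at 3.42.

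Of the core genes, 3 have a match to the κB consensus, the 10-letter motif bound by NF-κB dimers, in the 250 bases before an annotated start. The consensus was searched on both strands, and matches may overlap. RefSeq windows (GRCm38.p6) were found for 8 of the 10 genes (not Nfkb1 and Relb), in 12 windows, of which 5 windows of Nfkb2, Nfkbia and Tnfaip3 held a match. Of 32817 such windows of all genes, 7.25% hold 1 or more matches and 1.03% hold at least 2. For each of these 3 genes the window before the first listed start is shown, since their results are set side by side below. The letters run 5′ to 3′ on the strand of the gene and end at the base before the start, with matches in capitals. They are chr12:55492648-55492897 on the minus strand for Nfkbia, chr10:19015411-19015660 on the minus strand for Tnfaip3 and chr19:46304487-46304736 on the plus strand for Nfkb2.
Nfkbia: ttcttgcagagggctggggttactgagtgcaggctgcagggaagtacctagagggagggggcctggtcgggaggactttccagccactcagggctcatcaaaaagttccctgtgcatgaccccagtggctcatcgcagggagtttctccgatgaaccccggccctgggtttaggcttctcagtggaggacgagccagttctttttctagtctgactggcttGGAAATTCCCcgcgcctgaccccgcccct
Tnfaip3: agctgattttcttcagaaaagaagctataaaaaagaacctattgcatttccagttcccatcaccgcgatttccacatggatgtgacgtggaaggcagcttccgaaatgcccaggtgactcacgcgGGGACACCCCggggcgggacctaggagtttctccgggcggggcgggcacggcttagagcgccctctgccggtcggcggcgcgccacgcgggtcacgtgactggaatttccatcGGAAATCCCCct
Nfkb2: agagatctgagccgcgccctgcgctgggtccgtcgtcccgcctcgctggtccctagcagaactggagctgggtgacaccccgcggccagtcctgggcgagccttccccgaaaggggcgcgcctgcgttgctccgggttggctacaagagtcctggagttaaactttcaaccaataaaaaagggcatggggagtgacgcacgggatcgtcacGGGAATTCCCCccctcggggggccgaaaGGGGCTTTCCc
The Nfkbia window has 1 match, 29 to 20 bases before the start. The Tnfaip3 window has 2, at 125 to 116 and at 12 to 3 bases before it. The Nfkb2 window has 3, of which the pair at 39 to 30 and 38 to 29 bases overlaps and reads as 1 run of capitals, and the other lies at 11 to 2 bases. The windows at 2 further Nfkb2 starts hold 1 match each. Windows of Tnfrsf1a, Tnfrsf1b, Traf2, Ripk1 and Rela have no match, which says only that these letters are not in these windows. The 3 genes with a match did not share a direction with age: Nfkbia was higher, Nfkb2 had a negative difference and Tnfaip3 had an interval that spans 0.

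Nfkbia (chromosome 12) encodes IκBα, which holds Rela dimers in the cytoplasm and is resynthesised when they are active. It had 5577, 6852 and 6950 normalized counts in old IL27RA+ and 7385, 8373 and 7401 in old IL27RA− libraries, against 6108, 4227 and 4434 in young IL27RA+ and 4763, 4299 and 4930 in young IL27RA− libraries. In IL27RA− cells every old library lay above every young one. In IL27RA+ cells young replicate 1 exceeded old replicate 1, and the other libraries were separate. Old minus young was 0.73 ± 0.19 in IL27RA− cells (interval 0.31 to 1.14, p 0.00201, adjusted p 0.121) and 0.40 ± 0.19 in IL27RA+ cells (interval −0.01 to 0.82, adjusted p 0.583). The difference between those was −0.32 ± 0.27 and did not pass (adjusted p 0.943).

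Leaving out young IL27RA+ replicate 1 gave an averaged age difference of Nfkbia of 0.65 (adjusted p 0.0278), and leaving out old IL27RA− replicate 1 gave 0.58 (adjusted p 0.0722). Leaving out any of the other 10 libraries also ended the call, with adjusted p of 0.0519 to 0.131. The exact permutation p for age was 0.01, unadjusted. For the sort, all 3 old IL27RA+ libraries lay below all 3 old IL27RA− libraries (−0.26 ± 0.19, adjusted p 1), while the young groups overlapped. Old libraries also had higher sums of neutrophil and granule markers, at 7796 to 13163 normalized counts against 3646 to 5488 in young libraries, nearly all from Prtn3, a granule protease. Of the 6 tested genes of that list, 2 had a positive and 4 a negative age difference, with a median of −0.24 log2 units. One gene was called higher with age and 0 lower, averaged, in IL27RA− cells and in IL27RA+ cells, where 1.88%, 0.672% and 0.421% of all genes were called. The genes other than Prtn3 were low, with group means of S100a9 between 4.12 and 106 normalized counts, and 4, 3, 2 and 7 of the 11 listed genes had no read in old IL27RA+, old IL27RA−, young IL27RA+ and young IL27RA− cells. Their part in the Nfkbia result was not tested.

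Nfkbia was also set against Rela, the subunit that its protein binds. The log2 ratio averaged 2.91 ± 0.24 in old IL27RA+ and 3.42 ± 0.69 in old IL27RA− cells, against young values of 2.41 ± 0.28 in IL27RA+ and 2.18 ± 0.59 in IL27RA− cells (SD, n = 3). The age difference was 0.87 (exact permutation p = 0.01, adjusted p = 0.1) and 0.67 without old IL27RA− replicate 1, where Rela was low. The ratio did not pass the adjusted threshold. The relabelings allow no p below 0.005, so a lone ratio could not pass the adjustment over the ratio tests. No conclusion is drawn from that outcome. Among the genes with a standardized profile near that of Nfkbia over the 12 libraries were Gm12185 and Tgfb3, at root mean square distances of 0.36 and 0.41 SD, against a median of 1.38 over all genes tested. Nearest to Nfkb2 were Mettl7a1, Gabre and Rnf113a1, at 0.34, 0.44 and 0.49, and nearest to Tnfrsf1a were Tmem56, Rasip1 and Pigb, at 0.59 to 0.63.

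Tnfaip3 (chromosome 10) encodes A20, an enzyme that edits ubiquitin chains on Ripk1 and ends NF-κB signalling. It had 316, 476 and 461 normalized counts in old IL27RA+ and 10.6, 566 and 132 in old IL27RA− libraries, against 465, 670 and 198 in young IL27RA+ and 217, 275 and 135 in young IL27RA− libraries. Means were higher in IL27RA+ than in IL27RA− cells at both ages, but the groups overlapped at both. The sort difference was 2.11 ± 1.03 in old and 0.98 ± 1.03 in young cells, and averaged 1.54 ± 0.73 (interval −0.01 to 3.10, adjusted p 0.636). One library decides much of this value: old IL27RA− replicate 1 held 11 reads of Tnfaip3, above the floor of 3 reads, and without it the averaged difference was 0.78. Its exact permutation p for the sort was 0.075, and 0.25 after adjustment. Old minus young was −0.51 ± 0.73 and 0.25 without that library. The log2 ratio of Tnfaip3 to Rela differed by 1.50 for the sort (exact permutation p = 0.08, adjusted p = 0.225).

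Of the TNF family ligands, 10 of 18 listed genes were tested and none passed in any comparison. Their median age difference was 0.50 log2 units, with 6 of the 10 positive, against 0.06 for all genes. That median falls between Tnfsf13 (0.48 ± 0.40) and Tnfsf11 (0.52 ± 1.39), whose group means were 1.25 to 13.5 normalized counts for Tnfsf11. Whether the list median differs from that of all genes was not tested. Tnf itself had 0, 0 and 122 normalized counts in old IL27RA+ and 0, 1.04 and 0 in old IL27RA− libraries, against 0, 0 and 123 in young IL27RA+ and 0.796, 42.9 and 0 in young IL27RA− libraries. It was thus above the floor in 3 of the 12 libraries. The ligands nearest to the threshold were Ltb and Tnfsf10. Ltb, a chain of the membrane lymphotoxin that signals through the slower route, had 1466, 1732 and 929 normalized counts in old IL27RA+ and 1651, 2030 and 2332 in old IL27RA− libraries, against 3158, 3304 and 2400 in young IL27RA+ and 4185, 2377 and 2364 in young IL27RA− libraries. No old library exceeded a young one, and the age difference was −0.83 ± 0.21 (adjusted p 0.0586). Tnfsf10, the death ligand TRAIL, averaged 2073 ± 229 in old IL27RA+ and 3070 ± 586 in old IL27RA− cells, against 1948 ± 312 in young IL27RA+ and 1307 ± 573 in young IL27RA− libraries (age difference 0.71 ± 0.22, adjusted p 0.128).

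Among 16 other TNF family receptors tested, 1 fell with age, averaged over fractions, and none rose, where 1.88% of all genes were called. Of the 16, 6 had an unadjusted limma p under 0.05 for age, against 15.1% of all genes. Relt, a receptor of the family that is expressed in lymphoid tissue, had 244, 411 and 236 normalized counts in old IL27RA+ and 130, 165 and 230 in old IL27RA− libraries, against 537, 464 and 572 in young IL27RA+ and 548, 820 and 703 in young IL27RA− libraries. Every old library was below every young one, and Relt fell by 1.43 ± 0.31 on the log2 scale (limma adjusted p 0.0268). The call was lost in 7 of 22 alternatives, each of which left out 1 library: old IL27RA+ replicate 1 or 3, old IL27RA− replicate 2, young IL27RA+ replicate 1 or 3, or young IL27RA− replicate 2 or 3 (adjusted p 0.0511 to 0.0776). Tnfrsf13c, the BAFF receptor of B cells, averaged 165 ± 48.3 and 44.0 ± 51.5 in old IL27RA+ and IL27RA− cells, against 473 ± 238 and 356 ± 188 in the young fractions (−2.53 ± 0.63, adjusted p 0.0558).

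Of 32 receptor-proximal adaptor, ubiquitin and death genes, all were tested and 1 rose with age, where 1.88% of all genes were called. An unadjusted limma p under 0.05 for age was found for 3 of the 32, against 15.1% of all genes. Tnip3, a ubiquitin-binding partner of A20, had 2559, 2740 and 3859 normalized counts in old IL27RA+ and 3411, 4969 and 3191 in old IL27RA− libraries, against 1279, 482 and 1114 in young IL27RA+ and 3097, 1607 and 1854 in young IL27RA− libraries. Within each fraction every old library lay above every young one, with differences of 1.77 ± 0.36 in IL27RA+ and 0.85 ± 0.36 in IL27RA− cells. Young IL27RA− replicate 1 exceeded 2 old IL27RA+ libraries. Tnip3 rose by 1.31 ± 0.26 on the log2 scale (limma adjusted p 0.0169), and whether the rise differs between fractions did not pass (interaction 0.92 ± 0.51, adjusted p 0.941). The averaged call was lost without a variance trend (adjusted p 0.0854), without old IL27RA+ replicate 3 (0.0567) and without old IL27RA− replicate 2 (0.0533). Birc3, a ubiquitin ligase of the TNF receptor complex, was not called for the sort (−0.66 ± 0.21, adjusted p 0.378).

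None of the 10 IκB kinase and upstream kinase genes and none of the 8 other NF-κB and IκB genes was called in any of the 7 comparisons. Chuk, which encodes the kinase that acts on the Nfkb2 precursor, averaged 1244 ± 261 normalized counts in old IL27RA+ and 501 ± 151 in old IL27RA− cells, against 1401 ± 271 and 1188 ± 436 in young IL27RA+ and IL27RA− cells. Its sort difference was 0.81 ± 0.25 (adjusted p 0.326), opposite in sign to that of Nfkb2. Map3k3 differed by −0.63 ± 0.24 for the sort (adjusted p 0.474). Nfkbid, a nuclear IκB protein, differed by −1.12 ± 0.45 for age (adjusted p 0.254), and Nfkbil1 by −1.52 ± 0.67 for the sort (adjusted p 0.591).

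The NF-κB target list had 34 of 50 genes tested, and it shares Ltb, Tnf, Birc3 and others with the lists above. In the averaged age comparison 0 of them passed in either direction, with a median of 0.09 log2 units against 0.06 for all genes and 7 of the 34 at an unadjusted p under 0.05, against 15.1% of all genes. In the averaged sort comparison 1 was higher and none lower, with 7 of the 34 at an unadjusted p under 0.05, against 7.97% of all genes. That gene was Vcam1, an adhesion molecule that marrow macrophages and stroma also carry, with 613, 28.7 and 865 normalized counts in old IL27RA+ and 0.963, 1.04 and 1.26 in old IL27RA− libraries, and 916, 434 and 785 in young IL27RA+ and 0.796, 0 and 0 in young IL27RA− libraries. All IL27RA− libraries had 1 read or none. In young cells alone Vcam1 was also called (limma difference 9.13, adjusted p 0.0384), where 0.0204% of all genes were called. That call was lost in 12 of 22 alternatives. The averaged limma difference of Vcam1, 8.02 ± 0.93 (adjusted p 0.00367), depends on the pseudocount, with 5.35 at a pseudocount of 10, and is no bound, and voom gave an adjusted p of 0.0885. The macrophage genes C1qa, C1qb and C1qc moved with it: C1qb averaged 609 in old IL27RA+ and 0.346 in old IL27RA− cells, and 597 in young IL27RA+ and 18.6 in young IL27RA− libraries. Of the 13 macrophage and monocyte genes tested, 3 were called higher for the sort and all 13 had a positive difference. Their part in the Vcam1 result was not tested.

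Of 12 genes for ERK kinases, ETS factors and the IL27 receptor, none was called. Braf differed by −0.64 ± 0.21 for age (adjusted p 0.149). Ets1 averaged 716 ± 98.8 in old IL27RA+ and 1065 ± 588 in old IL27RA− cells, against 270 ± 149 in young IL27RA+ and 772 ± 224 in young IL27RA− libraries, with an age difference of 0.98 ± 0.35 (adjusted p 0.199).

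**Figure D5:**
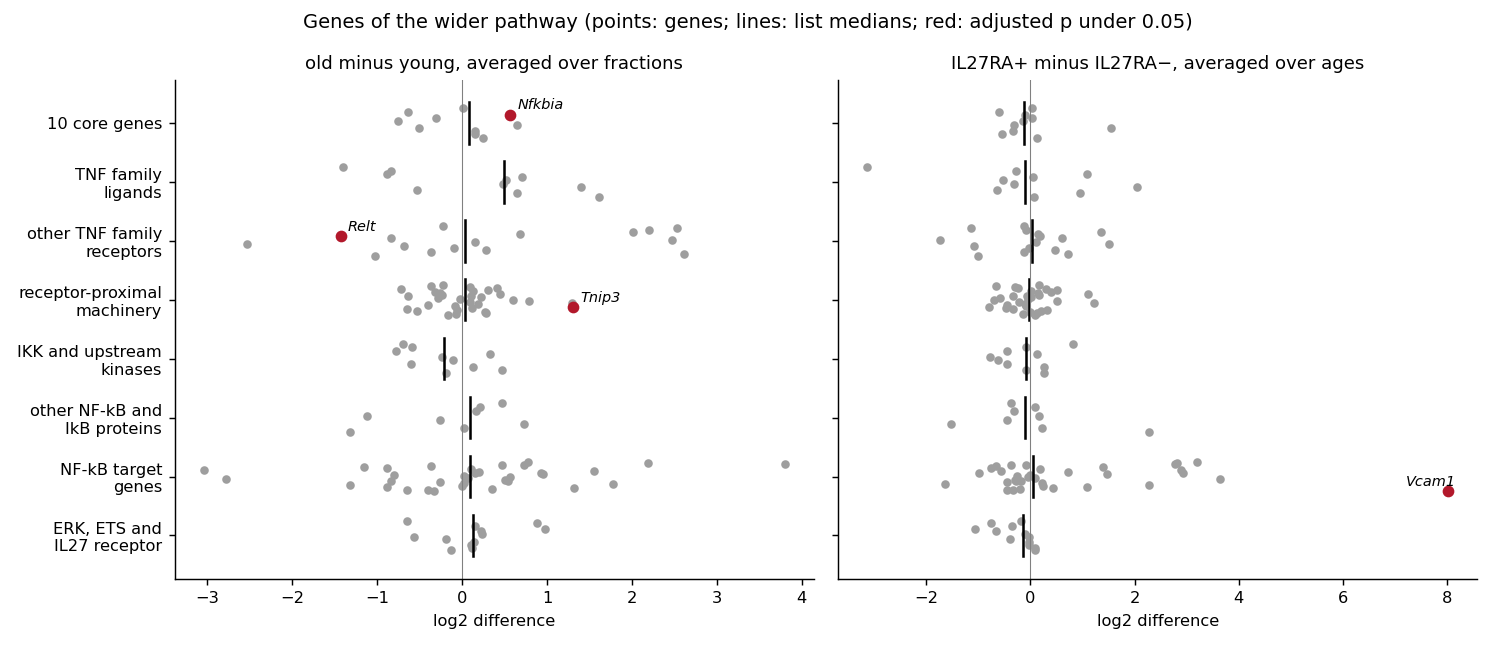
Log2 differences of the genes of each list, old minus young on the left and IL27RA+ minus IL27RA− on the right, both averaged; points are genes that were tested, lines are list medians, and red marks an adjusted p under 0.05. List medians for age run from −0.21 for the IκB kinase genes to 0.50 for the TNF family ligands, and the called genes are Nfkbia, Relt and Tnip3 for age and Vcam1 for the sort.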

How the data were processed

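The authors deposited 1 table of log2 values with a column for each of the 12 libraries. Per the submitters' processing notes the tools were FastQC 0.11.5, TopHat2 2.1.1, HTSeq and DESeq2, without roles, and no genome build is stated. Judged from the values, each is the log2 of 1 plus a normalized count: dividing out the factor gave whole reads for 100% of values within 0.001 reads. One damaged cell in the column of young IL27RA− replicate 2 (the gene Mtbp, deposited with a value that is no log2 level) belongs to a line left out, as were 15 repeated lines.

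Differences were tested with the variance-trend fit of limma 3.58.1 under R 4.3.3 on the log2 values of all 12 libraries, 1 mean per group, with 8 residual and 6.62 prior degrees of freedom. P-values were Benjamini-Hochberg adjusted over the 14723 genes with 10 or more normalized counts in 3 or more libraries. No count model was the main test, since the values were deposited as log2 normalized counts. The reads recovered from them were fitted with voom as an alternative. The fit was also run on simulated counts, drawn independently and without an outlying library such as old IL27RA− replicate 1. No conclusion about these libraries is drawn from that run. Single genes and ratios were also tested by exact permutation of labels within strata (400 relabelings, two-sided). Exon lengths and chromosomes came from GENCODE M21, promoter windows from RefSeq (GRCm38.p6).

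The members and the lists were chosen with earlier results of these data known. Named genes were the 10 members, each gene of a pathway list called in any comparison, the 2 with the smallest averaged p where fewer than 2 were called, Tnf, Il27ra, Ets1 and the 3 nearest profiles of the 3 members with the smallest p. One of those profiles is not reported here. Other marker lists (T and NK, erythroid, stroma and endothelium) are summed in the closing section. Alternatives were other filters, pseudocounts, scalings, models, library weights, a replicate block and leaving out each library, and those for pathway genes were chosen after seeing the data.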

Additional observations from a re-analysis of the deposited data

How the results depend on the processing

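Averaged over fractions, 1 core gene (Nfkbia) was called for age. That count was 0 with no filter, with a stricter filter (9 of 12 libraries), with a pseudocount of 0.5, with TMM scaling, with quantile normalization, with voom on recovered reads, with no variance trend, with library weights and with the replicate block. It stayed 1 with a pseudocount of 10. Leaving out each library in turn gave 0 to 1, with 1 only without young IL27RA+ replicate 1. Across these 22 settings the Nfkbia difference stayed between 0.49 and 0.65 and its adjusted p between 0.0278 and 0.202, and the cause was not tested. In the other 6 comparisons 0 core genes were called under every alternative run. No called difference reversed. Signs changed 102 times among the differences of core genes, ratios and named pathway genes, each time for a difference that was not called. Over all genes, 277 were called for age and 28 for the sort, both averaged. Voom on recovered reads called 251 and 13, the stricter filter 172 and 2, and no filter 202 and 14. Without a variance trend 191 and 48 were called, and with library weights 348 and 47. Leaving out 1 library gave 140 to 434 for age and 6 to 96 for the sort. Fits of only the 2 groups compared apply to the 4 single comparisons and not to averages.

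With the replicate number as a block the Nfkbia difference was 0.57 with an adjusted p of 0.0608. Same-numbered libraries correlated with r of −0.0539 to 0.107 in their deviations from group means, and other pairs with −0.0676 to 0.0712. These ranges include pairs across ages. Within an age, same-numbered IL27RA+ and IL27RA− libraries had r of 0.031, 0.0038 and 0.095 in old and 0.107, 0.027 and 0.016 in young cells, all positive. Other-numbered pairs within an age ran from −0.0676 to 0.038. The rule asked every same-numbered pair to exceed 0.1, so the numbers were not taken to pair the libraries. Whether same-numbered libraries of an age share an origin was not tested, and the main fit takes them as unpaired. Of the 12 libraries, 7 correlated best with their own number and 5 did not.

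Every core gene lay above the floor of 3 reads in every library. Tnfrsf13c, not called for age, was called with a pseudocount of 10 (adjusted p 0.0401) and without old IL27RA− replicate 2 (0.0197). Vcam1 and Tnf could not be fitted under the stricter filter. With 3 libraries a group, a single-group exact test cannot go below 0.1.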

Other observations

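Sums of the remaining marker lists, as normalized counts per library, are given as values. T and NK cell markers summed to 120 to 493 in old IL27RA+ and 30.8 to 121 in old IL27RA− libraries, and to 44.3 to 265 in young IL27RA+ and 10.9 to 146 in young IL27RA− libraries. Erythroid markers summed to 295 to 1006 in old IL27RA+ and 306 to 489 in old IL27RA− libraries, and to 662 to 5276 in young IL27RA+ and 298 to 666 in young IL27RA− libraries. Stroma and endothelium markers summed to 1373 to 1791 in old IL27RA+ and 1872 to 2225 in old IL27RA− libraries, and to 2063 to 3586 in young IL27RA+ and 2496 to 3454 in young IL27RA− libraries. Of the 6 tested genes of the stroma and endothelium list, 1 was called lower with age in the averaged comparison and 1 in IL27RA+ cells. In those comparisons 1.88% and 0.421% of all genes were called. No gene of the other 2 lists was called.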
